A study of Homo sapiens with 6 samples.

Results

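The anoctamins, also called TMEM16 proteins, are a family of membrane proteins encoded by ANO1 to ANO10. All 10 members were found by symbol among the 56638 gene symbols of the count tables. The family was chosen by the measured rise of ANO3 in METTL3 knockout libraries, which was already known in these data, so the values of ANO3 are given as a description without a test. The other 9 members came in by name. The cells were HCT116, a human colorectal carcinoma line grown in McCoy's 5a medium with serum, and RNA-seq compared 3 wild type (WT) samples with 3 METTL3 knockout (METTL3-KO) samples to ask how the transcriptome differs without METTL3, the catalytic subunit of the m6A RNA methyltransferase. Per the study's methods, METTL3 was cut with a lentiviral CRISPR-Cas9 vector and the puromycin-selected knockout cells were grown out as 1 monoclonal line, so an effect of the knockout and a property of the clone cannot be told apart. The deposited files call the groups NC and SiM3, a name in the manner of an siRNA, where the labels say wild type and METTL3 knock out. That these are libraries of the knockout clone rests on the labels and on the study, which describes its RNA-seq as of METTL3-knockout and WT cells. The study reports that the knockout was checked by sequencing and Western blot. Both groups had the same passage range, and no other treatment is labelled.

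ANO1 and ANO2 are chloride channels that open when cytosolic calcium rises, and ANO1 carries chloride secretion in many epithelia. ANO6 is a calcium-activated scramblase, which lets phospholipids cross between the leaflets of the plasma membrane, and several other members have been linked to lipid scrambling or to intracellular membranes. Loss or mutation of single members causes distinct diseases: ANO3 is a dystonia gene, ANO5 a muscular dystrophy gene, ANO6 the gene of the Scott bleeding syndrome and ANO10 a cerebellar ataxia gene.

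Counts assigned to genes ran from 20936091 to 30142144 per library, so 3 counts, used here as the limit that a count of 0 allows, stood for 0.0995 to 0.143 CPM (counts scaled to a library total of 1000000) in a single library. METTL3 itself had 841, 682 and 623 counts in WT and 219, 169 and 162 in METTL3-KO libraries, a fall by 2.04 on the log2 scale (edgeR quasi-likelihood test, adjusted p = 1.59e-07). METTL3 RNA thus remained, at a ratio of 0.243 to WT, and this level does not by itself tell a knockout from a knockdown. All 11 colorectal epithelial markers were present, with a summed level of 6950 to 8561 CPM in WT and 10040 to 11130 CPM in METTL3-KO libraries. The largest part was KRT8, with means of 4119 CPM in WT and 5290 CPM in METTL3-KO. Of the 11, 6 rose and 0 fell, where 13.3% of all genes tested were called higher and 13.2% lower. In both groups replicate 3 stood apart. The mean chi-square per gene between replicates 1 and 2 was 2.58 in WT and 2.34 in METTL3-KO, against 23.1 and 23.0 for the WT pairs with replicate 3 and 11.2 and 8.32 for the METTL3-KO pairs. Results that rest on replicate 3 are therefore given with and without it. Leaving replicate 3 out of both groups was chosen after seeing the data. That fit keeps only replicates 1 and 2, which lay closest together, so its p-values are low for many genes. The labels do not say whether libraries of a group came from separate cultures, so p-values measure the spread between these samples, which may be technical.

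Across the transcriptome 5945 of 22452 tested genes passed an adjusted p of 0.05, which is 26.5% of the genes tested. Of all tested genes, 13.3% were higher and 13.2% lower in METTL3-KO, and the median log2 fold change was -0.02. The ranges of the CPM values of both groups did not overlap for 40.9% of tested genes. Of the 9 anoctamins other than ANO3, 6 had enough counts to be tested, and 1 of these was higher (ANO1) and 1 lower (ANO8) in METTL3-KO. These 2 of 6, or 33.3%, stand beside the background of 26.5% for calls, and the same 2 of 6 had ranges that did not overlap, beside the background of 40.9%. With a stricter filter on low counts (filterByExpr of edgeR, 16124 genes tested), 2 of the same 6 passed, where 37.4% of all genes did. The count depended on single libraries: it was 0 without METTL3-KO replicate 1, with 2 members at an unadjusted p under 0.05 by edgeR, it was 1 without WT replicate 1, WT replicate 2 or METTL3-KO replicate 3, and it was 4 without WT replicate 3. Without replicate 3 of both groups, 5 of the 6 passed. The background moved with these fits too. Of all genes tested, 19.3% were called without METTL3-KO replicate 1, 20.7% without WT replicate 1 and 21.3% without WT replicate 2. The share was 23.1% without METTL3-KO replicate 3, 34.7% without WT replicate 3 and 44.1% without replicate 3 of both groups.

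**Figure D1:**
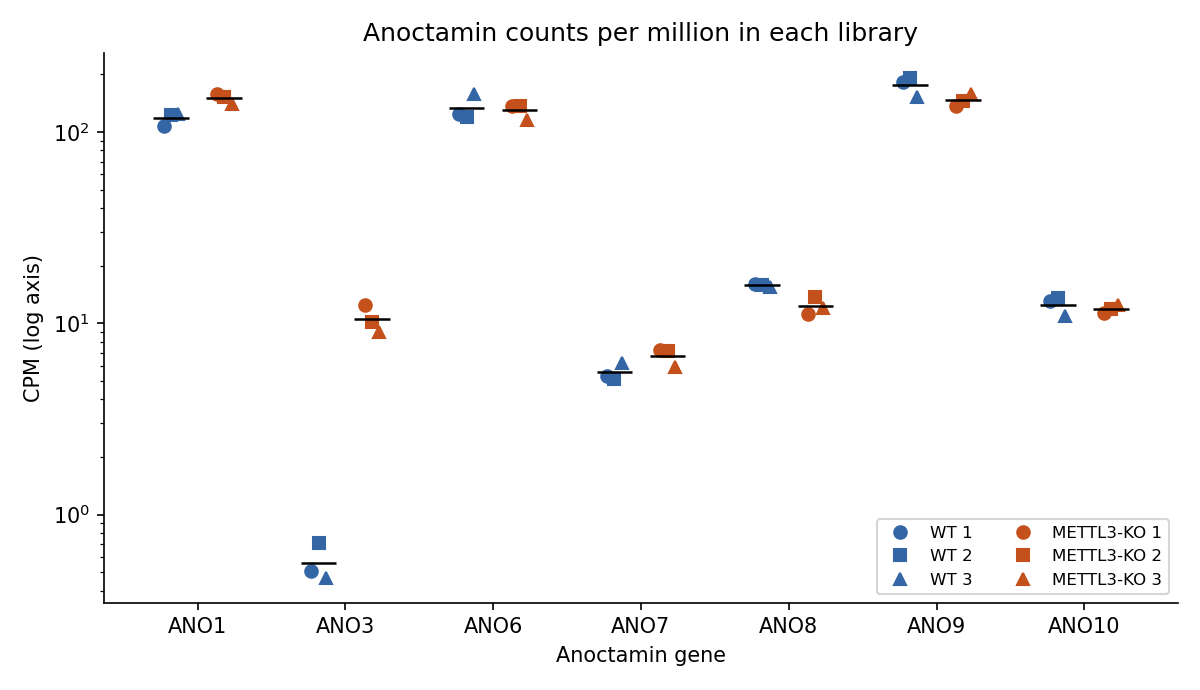
CPM on a log axis for the 7 anoctamins with enough counts to be tested, by library, with WT in blue, METTL3-KO in orange, a marker shape for each replicate number and a black bar for each group's mean (n = 3). ANO3 is the member whose groups lie far apart, at 0.469 to 0.708 CPM in WT and 9.01 to 12.5 CPM in METTL3-KO, while the groups of the others lie close together.

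ANO3 went from near the limit of detection to a moderate level. Its product is a multipass membrane protein known from the striatum. The WT libraries held 14, 16 and 10 counts and the METTL3-KO libraries 376, 224 and 212. In CPM these are 0.510, 0.708 and 0.469 in WT and 12.5, 10.2 and 9.01 in METTL3-KO. Every METTL3-KO library lay above every WT library, and the group means were 0.562 ± 0.128 and 10.6 ± 1.76 CPM (SD, n = 3), a ratio of 18.8. The fitted log2 fold change was 4.23 (SE 0.207, 95% interval 3.78 to 4.68). This interval does not allow for the choice of ANO3 by its rise and is a description, not a test. The log2 fold change ran from 4.09 to 4.43 when 1 library at a time was left out and was 4.24 without replicate 3 of both groups. Counting ANO3, 58 of the 22452 tested genes had a log2 fold change at least as high. In bulk RNA, more cells with ANO3 RNA and more ANO3 RNA per cell cannot be told apart.

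The gene lies on the forward strand of chromosome 11, from 26210389 to 26684836 on GRCh37. Its RefSeq entries give 3 separate start sites. The 250 bases upstream of each are shown because the counts, which are per gene, span transcripts from all 3 and do not say which was in use. The sequences are from the RefSeq promoter table, each placed on GRCh37 by an exact match to a single position, and capitals mark the motifs found:
ANO3 at chr11:26210105-26210354, forward strand: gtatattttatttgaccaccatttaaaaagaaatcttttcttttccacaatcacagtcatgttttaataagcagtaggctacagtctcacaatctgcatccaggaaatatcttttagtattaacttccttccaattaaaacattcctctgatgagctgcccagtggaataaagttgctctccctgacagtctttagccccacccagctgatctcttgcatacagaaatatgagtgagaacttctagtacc
ANO3 at chr11:26353427-26353676, forward strand: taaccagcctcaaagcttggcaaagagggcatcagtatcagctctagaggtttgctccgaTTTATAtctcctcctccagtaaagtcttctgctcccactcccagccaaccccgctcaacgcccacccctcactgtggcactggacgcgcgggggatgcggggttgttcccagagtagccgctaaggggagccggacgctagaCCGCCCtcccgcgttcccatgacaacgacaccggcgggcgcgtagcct
ANO3 at chr11:26495252-26495501, forward strand: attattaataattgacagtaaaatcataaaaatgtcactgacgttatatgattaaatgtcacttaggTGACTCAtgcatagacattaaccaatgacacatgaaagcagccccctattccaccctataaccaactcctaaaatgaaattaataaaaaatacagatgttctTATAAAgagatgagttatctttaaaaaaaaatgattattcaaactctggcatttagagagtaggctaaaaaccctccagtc

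Between them these windows differ in base composition. The first holds 0 CpG dinucleotides and 37.6% G or C, the second 18 CpG and 61.2%, and the third 1 CpG and 30.8%, beside a median of 11 CpG over 35116 windows of the same length. Both strands were searched for the AP-1 motif TGAGTCA, the CRE TGACGTCA, the E-box CACGTG, the GC-box GGGCGG and the TATA-box TATAAA. The first window held none of them, the second a GC-box and a TATA-box, both on the reverse strand, and the third an AP-1 motif and a TATA-box. Of all windows, 4.20% hold the AP-1 motif, 1.65% the CRE, 6.35% the E-box, 42.6% the GC-box and 10.7% the TATA-box. A match is a description of the letters and not a site of binding.

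For contrast, ANO1, whose mRNA was abundant in both groups, has a start with 30 CpG in the same window and 4 GC-boxes. It lies on the same chromosome and strand:
ANO1 at chr11:69831763-69832012, forward strand: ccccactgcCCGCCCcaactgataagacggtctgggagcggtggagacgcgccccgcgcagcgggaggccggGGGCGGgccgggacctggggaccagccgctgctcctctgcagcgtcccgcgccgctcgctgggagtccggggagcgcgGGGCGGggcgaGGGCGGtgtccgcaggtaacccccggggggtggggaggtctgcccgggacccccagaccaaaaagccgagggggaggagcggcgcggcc

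METTL3 methylates adenosines in short sequence contexts of which GGACT, in DNA letters, is a well-known form. The longest annotated ANO3 transcript, at 6308 bases, was longer than 84.2% of tested genes with an annotation, and its GC content of 38.2% stood at percentile 9.23. It held 2 copies of GGACT, or 0.317 per kb, beside a median of 0.908 per kb over 17233 tested genes. Both copies lie in the coding sequence. ANO6, with 1 copy in 5998 bases, had the lowest density of the family at 0.167 per kb, and ANO4, with 10 copies, the highest at 2.48 per kb. The sites of ANO3 and ANO6 are shown with GGACT in capitals, since these members had the largest and the smallest difference in size among the 7 tested over all 6 libraries:
ANO3 at chr11:26568977-26568997, forward strand: agaagattGGACTatactttg
ANO3 at chr11:26663541-26663561, forward strand: accttcatGGACTgatggatg
ANO6 at chr12:45803204-45803224, forward strand: tgggaacaGGACTaccatctg
ANO1, which was called higher, held 7 copies (1.44 per kb), and ANO8, which was called lower, held 5 (1.08 per kb). These libraries give no m6A level. The study also ran m6A-seq on HCT116 WT and METTL3-KO cells, which was not analysed here.

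MUC15, a membrane mucin gene, lies within ANO3 on the opposite strand, from 26580579 to 26593810, and shares 175 exon bases with it. Its counts were 1, 3 and 0 in WT and 24, 12 and 12 in METTL3-KO. The log2 fold change was 3.37 (SE 0.640). With 4 counts in WT as a whole, it passed the filter on low counts only through the group where it was high, so no call is drawn from it. The strand setting of the counting is not given in the sources used here, so reads from either gene within the other's exons cannot be assigned by strand.

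Genes with a span within 1000000 bases of ANO3 were also examined. BDNF, which encodes a neurotrophin and starts 1533 kb from the ANO3 start, had 91, 92 and 59 counts in WT and 296, 162 and 238 in METTL3-KO. It was called higher, with a log2 fold change of 1.43 (SE 0.168, edgeR adjusted p = 8.25e-05), and passed in all 6 fits that left out 1 library. Between ANO3 and BDNF, CCDC34 (log2 fold change 0.12, adjusted p = 0.307), LGR4, an R-spondin receptor (-0.26, adjusted p = 0.0595), LIN7C (-0.02, adjusted p = 0.894) and BDNF-AS, the antisense RNA of BDNF (0.45, adjusted p = 0.140), did not pass the edgeR test. BBOX1, of carnitine synthesis, had 0 counts in all WT libraries and 1, 2 and 7 in METTL3-KO, so it too passed the filter only through METTL3-KO, and no fold is given. SLC5A12 had 1 count in a single WT library. FIBIN, the gene after SLC5A12 along the chromosome, had 0 in all 6. CCDC34, LGR4 and LIN7C, with log2 fold changes between -0.26 and 0.12, thus lay between ANO3 and BDNF. BDNF-AS overlaps BDNF, and without strand their reads cannot be told apart.

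The 5 genes whose log2 CPM over the 6 libraries, centred on each gene's mean, lay nearest to that of ANO3 were DHRS9, PLA2G2F, CYP27A1, SCEL and MUC5B. The root mean square difference was 0.272 for DHRS9, a retinol dehydrogenase, and 0.811 for MUC5B, a secreted mucin, among 12831 genes compared. DHRS9 had 26, 25 and 13 counts in WT and 372, 290 and 348 in METTL3-KO. PLA2G2F, a secreted phospholipase A2, had 55, 46 and 26 in WT and 628, 370 and 560 in METTL3-KO. This likeness rests on the difference between both groups and is a description.

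Because ANO3 is known from neurons, neuronal markers were examined beside it. SNAP25 and STMN2 were at 0 in all 6 libraries, and 7 of 10 neuronal markers stayed below 1 CPM in every library. Their summed level was 10.4 to 16.9 CPM in WT and 18.9 to 23.4 CPM in METTL3-KO. Beside 13.3% of all genes tested called higher, 1 of 5 tested markers, the tubulin gene TUBB3, was higher and 0 were lower. The part of this in the ANO3 result was not tested.

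ANO1, the calcium-activated chloride channel of epithelia and of interstitial cells of Cajal, was modestly higher in METTL3-KO. It had 2933, 2769 and 2643 counts in WT and 4747, 3339 and 3275 in METTL3-KO, or 107, 122 and 124 against 157, 152 and 139 CPM. The lowest METTL3-KO library lay above the highest WT library. The means of 118 ± 9.48 and 150 ± 9.33 CPM (SD, n = 3) gave a log2 fold change of 0.35 (SE 0.0821, 95% interval 0.17 to 0.52, edgeR adjusted p = 0.00834). The call was lost without METTL3-KO replicate 1 (edgeR adjusted p = 0.0517) and was held in the other 5 fits that left out 1 library. Leaving out replicate 3 of both groups gave a log2 fold change of 0.43 (edgeR adjusted p = 3.12e-11). In that fit, chosen after seeing the data, 44.1% of all genes tested passed.

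Among the colorectal epithelial markers, KRT8, KRT19, KRT20, CDH1, VIL1 and CDH17 were called higher, the same direction as ANO1. EPCAM (log2 fold change 0.01), LGALS4 (0.05), KRT18 (0.18), CDX1 (0.35) and CDX2 (-0.19) were not called. The part of the epithelial markers in the ANO1 result was not tested. Of the markers of interstitial cells of Cajal and fibroblasts, KIT, PDGFRA, COL1A2 and COL3A1 were at 0 in all 6 libraries. The summed level of that list was 18.8 to 22.7 CPM in WT and 22.9 to 24.8 CPM in METTL3-KO. Of 3 tested members among the 9 listed, LUM rose and 0 fell, beside 13.3% of all genes tested called higher. The antisense gene ANO1-AS1, which shares 646 exon bases with ANO1, had 0 counts throughout. ANO1-AS2, which shares none, had between 0 and 8 counts per library (edgeR adjusted p = 0.632).

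ANO2, the channel of olfactory and photoreceptor cells and the closest paralog of ANO1 at 61.4% protein identity, was essentially absent. It had 0 counts in 5 libraries and 1 in METTL3-KO replicate 3. ANO4, the closest paralog of ANO3 at 61.0% identity, had 0 counts in all 6, which allows up to 0.0420 CPM in the WT and 0.0396 CPM in the METTL3-KO libraries as summed groups, for counting error only. ANO5, the closest paralog of ANO6 at 50.2% identity and known from skeletal muscle and bone, had 0 counts in 5 libraries and 1 in METTL3-KO replicate 2. These 3 members were not tested. The rise of ANO3 was thus not accompanied by detectable ANO4. In each of these 3 pairs of closest paralogs, 1 member was read in every library and the other had at most 1 count in all.

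For skeletal muscle, the tissue of ANO5, the markers MYH1, MYH2, MYOD1 and MYOG were at 0 throughout. The list summed to 23.8 to 34.5 CPM in WT and 35.1 to 46.8 CPM in METTL3-KO, nearly all of it from TNNT1, the 1 member called higher among 4 tested, with 0 lower. Leukocyte markers summed to 1013 to 1052 CPM in WT and 676 to 733 CPM in METTL3-KO. Most of this was lysozyme (LYZ), the 1 member called lower among 4 tested, and no member was called higher. Beside these single calls in both lists, 13.3% of all genes tested were called higher and 13.2% lower.

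ANO6, the plasma membrane scramblase, was among the most abundant members in both groups. It had 3399, 2716 and 3377 counts in WT and 4132, 2988 and 2711 in METTL3-KO, or 124, 120 and 158 against 137, 136 and 115 CPM. The ranges overlapped, because WT replicate 3 was the highest library and METTL3-KO replicate 3 the lowest. This gave a log2 fold change of -0.05 (SE 0.109, 95% interval -0.29 to 0.19, edgeR adjusted p = 0.773). Its direction turned with replicate 3: the value was 0.09 without WT replicate 3 (edgeR adjusted p = 0.410), 0.03 without METTL3-KO replicate 3 (edgeR adjusted p = 0.887), and 0.16 without replicate 3 of both groups (edgeR adjusted p = 0.00216). The pseudogene PLEKHA8P1, which shares 61 exon bases with ANO6 on the opposite strand, had a log2 fold change of 0.08 (edgeR adjusted p = 0.610).

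ANO9, a member of epithelial tissues, had the highest level in WT. Its counts were 5013, 4325 and 3233 in WT and 4118, 3196 and 3703 in METTL3-KO, or 183, 191 and 152 against 137, 145 and 157 CPM. WT replicate 3 lay below METTL3-KO replicate 3, so the ranges overlapped. The fitted log2 fold change was -0.26 (SE 0.0941, 95% interval -0.46 to -0.05, edgeR adjusted p = 0.0628). Leaving out 1 library moved it both ways. It was -0.18 without WT replicate 2 (edgeR adjusted p = 0.249) and -0.21 without METTL3-KO replicate 1 (edgeR adjusted p = 0.230). It was -0.35 without WT replicate 3 (edgeR adjusted p = 0.000415) and -0.41 without replicate 3 of both groups (edgeR adjusted p = 1.78e-11). In the last of these fits, chosen after seeing the data, 44.1% of all genes tested passed.

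ANO7, known from prostate epithelium, was a minor member here. It had 146, 116 and 133 counts in WT and 218, 157 and 139 in METTL3-KO, or 5.32, 5.13 and 6.24 against 7.23, 7.14 and 5.91 CPM. METTL3-KO replicate 3 fell within the WT range. The log2 fold change of 0.29 (SE 0.133, 95% interval -0.0031 to 0.58) did not pass (edgeR adjusted p = 0.137). It was 0.24 without METTL3-KO replicate 1 (edgeR adjusted p = 0.341), 0.38 without WT replicate 3 (edgeR adjusted p = 0.0397) and 0.46 without replicate 3 of both groups (edgeR adjusted p = 0.00367). ANO7P1, listed as a related pseudogene, had 33, 25 and 25 counts in WT and 72, 48 and 45 in METTL3-KO. It was called higher, with a log2 fold change of 0.90 (SE 0.198, edgeR adjusted p = 0.00527), and passed in all 6 fits that left out 1 library. The sequences of ANO7 and ANO7P1 were not compared here. Reads that aligned to more than 1 place had been left out, so counts would be uncertain where the copies are alike.

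ANO8, a protein of contacts between the endoplasmic reticulum and the plasma membrane, was modestly lower. It had 439, 359 and 329 counts in WT and 339, 301 and 284 in METTL3-KO, or 16.0, 15.9 and 15.4 against 11.2, 13.7 and 12.1 CPM. All METTL3-KO libraries lay below all WT libraries. The means of 15.8 ± 0.299 and 12.3 ± 1.25 CPM (SD, n = 3) gave a log2 fold change of -0.36 (SE 0.0998, 95% interval -0.58 to -0.14, edgeR adjusted p = 0.0194). This call was the less stable of the pair: it was lost without WT replicate 1 (adjusted p = 0.0701), WT replicate 2 (0.0703), METTL3-KO replicate 1 (0.105) or METTL3-KO replicate 3 (0.0563), all by edgeR. Without replicate 3 of both groups the log2 fold change was -0.37 (edgeR adjusted p = 0.00130). DDA1, which shares 76 exon bases with ANO8 on the opposite strand, moved the other way, with a log2 fold change of 0.39 (SE 0.0785, edgeR adjusted p = 0.00317), and passed in all 6 fits that left out 1 library.

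ANO10, an intracellular member and the closest paralog of ANO8 at 37.4% identity, had 358, 307 and 232 counts in WT and 341, 262 and 293 in METTL3-KO. The METTL3-KO values of 11.3, 11.9 and 12.5 CPM lay within the WT range of 10.9 to 13.6 CPM. Its log2 fold change was -0.08 (SE 0.109, 95% interval -0.31 to 0.16, edgeR adjusted p = 0.654). Single libraries moved it from -0.0039 without WT replicate 2 (edgeR adjusted p = 0.987) and -0.035 without METTL3-KO replicate 1 (0.884) to -0.16 without WT replicate 3 (0.228), and it was -0.20 without replicate 3 of both groups (0.0952). SNRK, a kinase gene whose span overlaps ANO10 without shared exon bases, was called higher (log2 fold change 0.36, edgeR adjusted p = 0.0210). The call on SNRK was lost in 4 of the 6 fits that left out 1 library, namely those without replicate 1 or 2 of either group. ABHD5, which shares 170 exon bases with ANO10, had a log2 fold change of -0.43 (edgeR adjusted p = 0.0805).

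**Figure D2:**
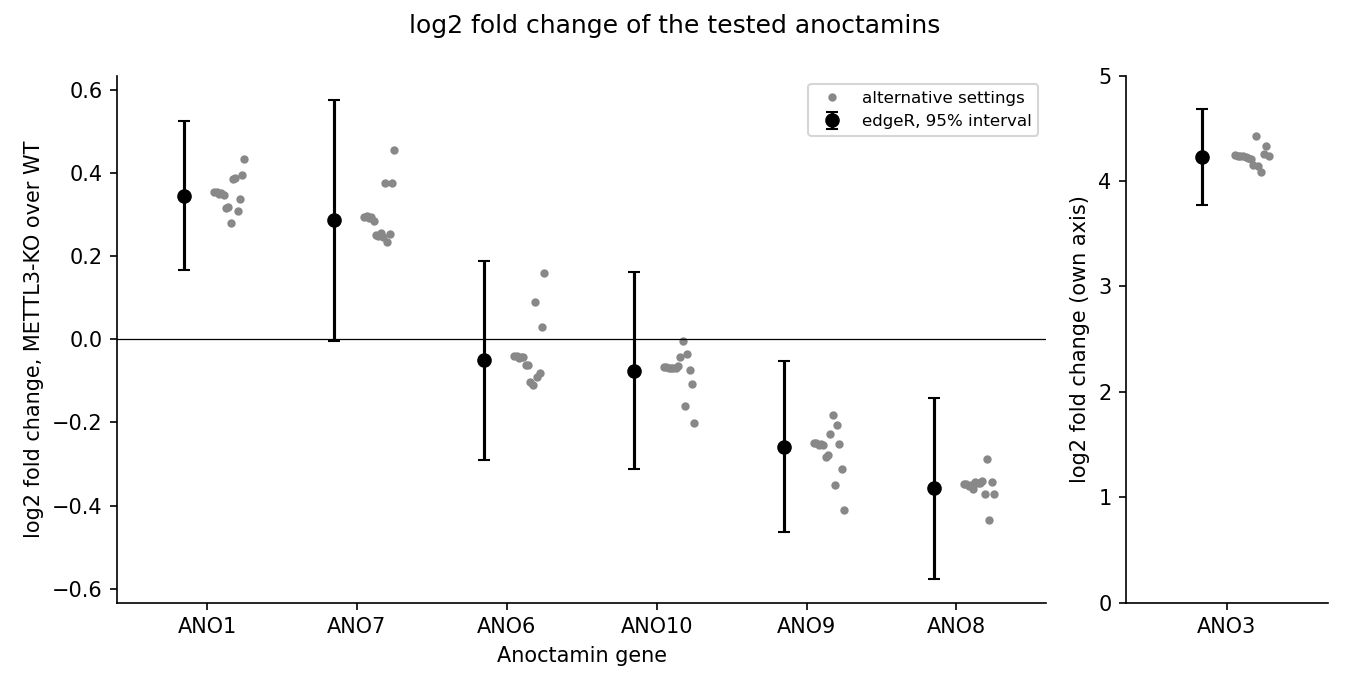
The log2 fold change of METTL3-KO over WT for each tested anoctamin, with ANO3 on its own axis. Black points with bars give the edgeR estimate and 95% interval over all 6 libraries, and grey points the estimates under 14 alternative settings. The interval of ANO1 lies above 0 and those of ANO8 and ANO9 below 0, and the grey points of ANO6 fall on both sides of 0. The interval of ANO3, which was chosen for its rise, is a description and not a test.

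Levels were compared between members per kb of exon, with all annotated exons of a gene counted. The order depends on this choice of length. In WT the order of the mean level was ANO9 at 28.2, ANO1 at 18.8, ANO6 at 15.2, ANO8 at 3.15, ANO10 at 2.37, ANO7 at 0.884 and ANO3 at 0.0721 CPM per kb. The ranges of ANO1 and ANO6 overlapped, and those of the other neighbours in this order did not. In METTL3-KO it was ANO1 at 23.9, ANO9 at 23.6, ANO6 at 14.7, ANO8 at 2.47, ANO10 at 2.25, ANO3 at 1.35 and ANO7 at 1.07 CPM per kb. There ANO1 overlapped ANO9 and ANO8 overlapped ANO10. Scaled by coding length instead, the mean of ANO10 lies above that of ANO8 in both groups. By that length ANO6 also lies above ANO1 in WT, and ANO9 above ANO1 in METTL3-KO. ANO3 thus reached the level range of the minor members, at 1.16 to 1.60 CPM per kb, next to ANO7 at 0.939 to 1.15.

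The summed level of the family was 68.7 ± 1.81 CPM per kb in WT and 69.3 ± 1.56 in METTL3-KO (SD, n = 3), and these ranges overlapped. Within it, ANO3 took 0.105% ± 0.0212 in WT and 1.95% ± 0.302 in METTL3-KO. ANO9 took 41.1% ± 4.63 and 34.1% ± 3.11, and ANO1 27.3% ± 1.78 and 34.4% ± 1.54. ANO6 held 22.2% ± 3.65 and 21.2% ± 1.58. These shares rest on the same exon lengths. The level of the family in these cells came almost wholly from these last 3 members in both groups.

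**Figure D3:**
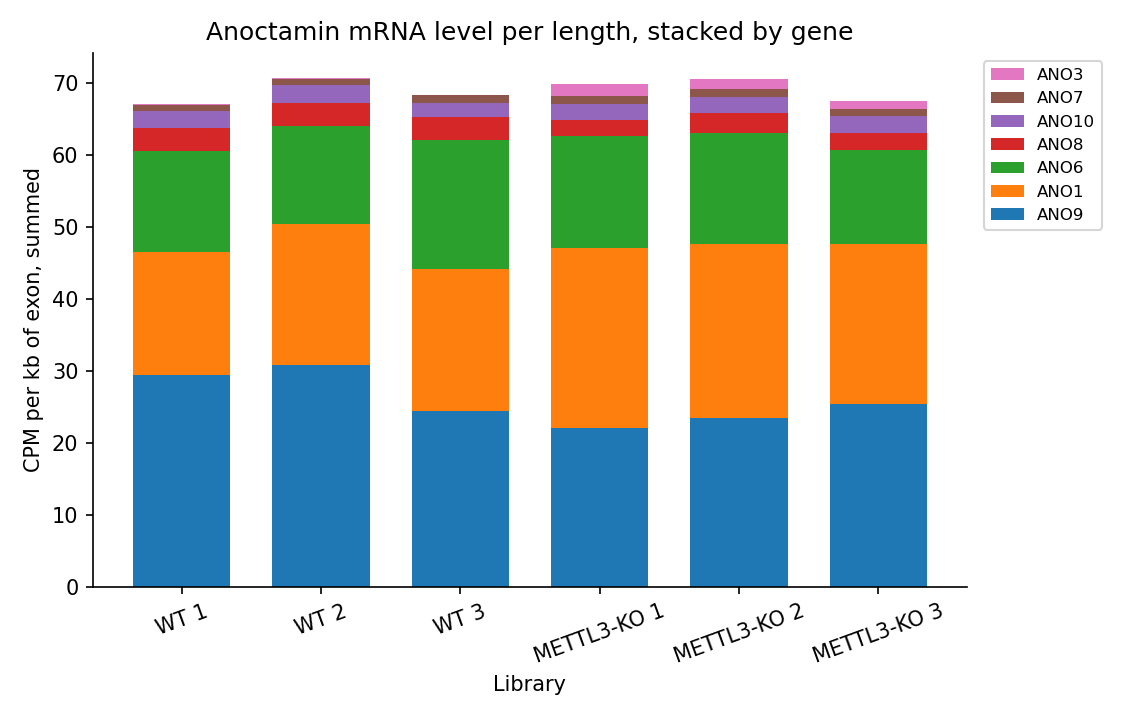
Level in CPM per kb of exon, stacked by gene, for each library. All 6 bars reach a similar height, with group means of 68.7 in WT and 69.3 in METTL3-KO, most of each bar is ANO9, ANO1 and ANO6, and the ANO3 band at the top is visible only in METTL3-KO.

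Genes that act beside the anoctamins were counted in 4 lists. Of 11 tested relatives in the wider superfamily (the TMC and TMEM63 proteins), 3 rose and 2 fell, 45.5% against the background of 26.5%. The median log2 fold change was 0.49, the value of TMC5, against -0.02 over all genes, and the next lower value was 0.07 (TMEM63B). This median includes TMC2, which had 0, 1 and 0 counts in WT and 3, 0 and 5 in METTL3-KO. TMC2 passed the filter on low counts only through METTL3-KO, and without it the median would be lower. TMEM63C, of a family of mechanosensitive channels, rose from 8.08 ± 0.132 to 13.9 ± 1.64 CPM (log2 fold change 0.78, edgeR adjusted p = 0.000302). TMC7 rose by 0.55. TMC8 and TMC6 fell by 0.71 and 0.22 on the log2 scale, and TMC6 lost its call in the 4 fits without replicate 1 or 2 of either group. In the fit without replicate 3 of both groups 8 of 10 tested relatives passed, where 44.1% of all genes did.

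Of 28 tested chloride channel genes outside the family, 5 rose and 4 fell, 32.1% with a median of 0.12. Without replicate 3 of both groups 14 of the 28 passed, near the 44.1% of all genes in that fit. TTYH1, a tweety family protein, had 44, 42 and 28 counts in WT and 202, 145 and 162 in METTL3-KO (log2 fold change 2.07, edgeR adjusted p = 3.68e-06). CLCA4, a calcium-activated chloride channel regulator, rose by 1.34 on the log2 scale from a low level of 0.521 ± 0.121 CPM. LRRC8C and LRRC8D, subunits of the volume-regulated anion channel, fell by 0.74 and 0.55. Without replicate 3 of both groups LRRC8C was at -0.44 and still passed (edgeR adjusted p = 0.00169).

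Of 20 tested scramblase and flippase genes, 5 rose and 4 fell, 45.0% with a median of 0.17. Without METTL3-KO replicate 1, 5 of the 20 passed, where 19.3% of all genes did. The flippase genes ATP10B and ATP8B2 rose by 0.77 and 0.49 on the log2 scale, the flippase gene ATP8A1 fell by 0.57 and the phospholipid scramblase family gene PLSCR4 fell by 0.48. ATP10B passed in all 6 fits that left out 1 library. ATP8B2 lost its call without replicate 1 or 2 of either group, and ATP8A1 and PLSCR4 lost theirs without METTL3-KO replicate 3.

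Calcium in the cytosol opens ANO1. A list of calcium handling covers release, entry, removal and the receptors and enzymes upstream. Of its 36 tested genes 13 rose and 4 fell, 47.2% against the background of 26.5%, with a median of 0.14. Without replicate 3 of both groups 23 of 35 passed, where 44.1% of all genes did. With the replicate number as a block 12 of 36 passed, where 15.7% of all genes did. The list mixes opposite roles: 7 of its tested genes are pumps that remove calcium from the cytosol. Of these, ATP2A1 (0.49), ATP2A3 (0.52) and ATP2B1 (0.63) rose and ATP2A2 (-0.30) fell. Of the other 29 genes 10 rose and 3 fell, with a median of 0.20. Beside these, 13.3% of all genes tested were called higher and 13.2% lower. The median was also 0.14 with ATP2B2, at 0 counts in METTL3-KO, set to the bound of 3 counts over that group. RYR2, a calcium release channel, had 9, 3 and 4 counts in WT and 38, 20 and 17 in METTL3-KO (log2 fold change 2.11, edgeR adjusted p = 0.00234). PLCG2 rose by 0.98 and PLCG1 fell by 0.64, and both encode phospholipases C that make inositol trisphosphate. ITPR3, a receptor of that messenger, fell by 0.42 (edgeR adjusted p = 0.0191). The ITPR3 call was lost without METTL3-KO replicate 2 or 3, and its log2 fold change was -0.18 without replicate 3 of both groups (edgeR adjusted p = 4.04e-05). These lists were written with earlier results of these data known, and their counts are a description.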

How the data were processed

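RNA-seq libraries of HCT116 cells were used, 6 in all with 3 WT and 3 METTL3-KO, grouped and numbered by the labels. Read pairs were aligned by the authors (TopHat2 2.0.11, hg19) and tallied per gene by HTSeq. The deposited files hold unnormalized counts by symbol. Reads in no annotated gene (the no-feature counter) made up 6.97% in METTL3-KO replicate 3, 10.5% in WT replicate 3 and 7.99% to 8.20% in the other libraries. These shares are of reads in a gene, ambiguous or in no gene, without those aligned to more than 1 place. The files name the groups NC and SiM3 and number the WT libraries differently, and the labels were followed.

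Genes with fewer than 5 counts in both conditions were removed. The test was edgeR 4.0.16 (R 4.3.3) quasi-likelihood with TMM scaling, two-sided, Benjamini-Hochberg over 22452 genes. CPM used TMM-scaled totals. Scripts were tested on simulated data. Alternatives were DESeq2 1.42.0, RLE scaling, other filters, a length and GC correction, a replicate block and leaving out libraries. Leaving out replicate 3 of both groups was chosen after seeing the data. Lengths and transcripts came from GENCODE on GRCh37, to which 35648 of 56638 symbols matched. Members and lists were chosen with earlier results of these data known. Named genes were the members, overlapping genes, METTL3, tested genes within 1000000 bases of ANO3, the 5 nearest in pattern (mean log2 CPM of at least 1), and up to 2 called genes per direction and list. SLC5A12, FIBIN, TMC2, TMC5, TMEM63B, the calcium pumps and the markers were named after their values were seen.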

Additional observations from a re-analysis of the deposited data

How the results depend on the processing

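The log2 fold change of ANO3 stayed between 4.09 and 4.43 under all 14 alternatives. The calls on the other members depended on single libraries. Of the 6 tested, 2 passed by edgeR over all 6 libraries, 0 to 4 when 1 library was left out, and 5 without replicate 3 of both groups. ANO6 ranged from -0.11 to 0.09 when 1 library was left out and changed sign without WT replicate 3 (0.09), without METTL3-KO replicate 3 (0.03) and without both (0.16). ANO9 also passed with no filter on low counts (edgeR adjusted p = 0.0149) and with the length and GC correction (0.0103). Without replicate 3 of both groups, 4555 genes were called higher and 4823 lower (44.1% of genes tested), against 2986 and 2959, with ranges of 2188 to 3809 and 1976 to 3793 when 1 library was left out. Replicate 3 left out also gave 8 superfamily relatives against 5 and 14 other chloride channels against 9. That fit gave 10 scramblases and flippases against 9 and 23 genes of calcium handling against 17. When 1 library was left out, 5 to 9 of 20 tested scramblases and flippases passed, against 9, where 19.2% to 34.7% of all genes tested did. With the stricter filter on low counts, 37.4% of all genes tested passed. Among the lists, 5 of 9 superfamily relatives, 9 of 23 other chloride channels, 9 of 18 scramblases and flippases and 18 of 30 calcium handling genes did. By raw counts without length scaling ANO3 took 2.26% of the family in METTL3-KO, against 1.95%. The cause of these shifts was not tested.

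With the replicate number as a block, 0 of the 6 members passed by edgeR, with 2 at an unadjusted p under 0.05 and ANO9 at an adjusted p of 0.198. In that fit 1810 genes were called higher and 1719 lower, 15.7% of genes tested, and 1 of 20 tested scramblases and flippases passed. With the block and the length and GC correction together, ANO9 passed (edgeR adjusted p = 0.0407). Deviations of same-numbered libraries from their group means correlated at -0.586, -0.390 and -0.784 across genes, and those of other pairs from -0.546 to 0.719. No library correlated best with its own number. The deviations of 3 libraries from their mean depend on each other, and replicate 3 stood apart in both groups. These values therefore cannot decide whether the numbers pair the libraries. ANO2 and ANO5, removed by the filter on low counts, did not pass without it (edgeR adjusted p = 0.571 for each), and ANO4 had no counts to test.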

Other observations

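The balance of the pair of members most abundant per kb of exon shifted, a comparison chosen after the values were seen and given without a test. The ratio of ANO1 counts to ANO9 counts was 0.585, 0.640 and 0.818 in the WT libraries and 1.15, 1.04 and 0.884 in the METTL3-KO libraries. The ranges did not overlap, and replicate 3 of each group lay nearest to the other group.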
